A study of Homo sapiens with 4 samples.

Results

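The genes examined were the 10 that encode the hypoxia-inducible factors (HIFs) and their oxygen sensors, out of 58229 genes in the expression table. The rule goes by name and known role and uses no measured value: the alpha subunits EPAS1, HIF1A and HIF3A, the partner subunits ARNT and ARNT2, the prolyl hydroxylases EGLN1, EGLN2 and EGLN3, the ubiquitin ligase subunit VHL, and the asparaginyl hydroxylase HIF1AN. Earlier results of these data were known when the genes were chosen. Each was found once in the table by its symbol, and all 10 had the gene coordinates of GENCODE release 29 on GRCh38. RNA was sequenced from CD31+ cells collected at day 8 of hematopoietic differentiation from the H1 line, a widely used line of human embryonic stem cells. CD31, the product of PECAM1, sits at the junctions of endothelial cells and also marks early blood cells. The Control group was H1 without HAND1 overexpression (2 libraries), and the HAND1_OE group was H1 that overexpressed HAND1, a basic helix-loop-helix transcription factor of extraembryonic and heart mesoderm (2 libraries). Both groups passed through the same differentiation, with activin A and BMP4 followed by VEGF and bFGF. In the paper, ectopic HAND1 was expressed before hemogenic endothelial cells turn into hematopoietic progenitor cells. The vector that carried HAND1, the number of clones and the oxygen level of the cultures are not given in the sources used here. Nothing in the labels states that the 2 libraries of a group came from separate cultures, so p-values measure only the spread between these libraries, which may be technical.

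HIFs are pairs of an alpha subunit and ARNT that bind the core sequence ACGTG or GCGTG and raise transcription of genes for glucose use, vessel growth and iron handling. In the presence of oxygen, the EGLN enzymes hydroxylate prolines of the alpha subunits, VHL binds the hydroxylated form, and the alpha subunit is degraded. HIF1AN hydroxylates an asparagine and blocks recruitment of the coactivators EP300 and CREBBP. HIF activity is therefore set to a large extent at the level of protein, which RNA sequencing does not measure. EPAS1 encodes HIF-2 alpha, is strongly expressed in endothelial cells and is also known as endothelial PAS domain protein. The comparison of the groups asked which of these genes differed in RNA level with HAND1 overexpression.

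The upstream sequences of EPAS1 and HIF1A are shown because these were the members with the largest differences between the groups. They were taken from RefSeq (GRCh38.p14), 5′ to 3′ on the plus strand. The EPAS1 sequence, chr2:46297157-46297401, is 245 bases long and leaves out the last bases before the RefSeq start, which lie in an exon of other transcripts of the gene. It lies inside the GENCODE span of EPAS1, which begins upstream of the RefSeq start. The HIF1A sequence, chr14:61695263-61695512, runs up to the base before a RefSeq start of the gene. It lies inside the span of HIF1A-AS1, a gene on the other strand. Capitals mark GCGTG, a HIF core sequence, and CANNTG, the E-box core read by basic helix-loop-helix proteins.
EPAS1: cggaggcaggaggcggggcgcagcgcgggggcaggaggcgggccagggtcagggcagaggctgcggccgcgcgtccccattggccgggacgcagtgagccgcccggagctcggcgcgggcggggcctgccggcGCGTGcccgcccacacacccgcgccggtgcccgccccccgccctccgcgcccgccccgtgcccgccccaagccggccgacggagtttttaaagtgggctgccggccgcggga
HIF1A: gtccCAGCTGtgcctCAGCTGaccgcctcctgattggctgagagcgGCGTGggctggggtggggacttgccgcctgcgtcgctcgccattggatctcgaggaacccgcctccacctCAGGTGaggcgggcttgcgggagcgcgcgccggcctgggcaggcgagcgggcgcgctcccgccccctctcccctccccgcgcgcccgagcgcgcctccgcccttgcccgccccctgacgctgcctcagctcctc
The EPAS1 sequence held GCGTG once, 117 bases upstream of the start, and held neither ACGTG nor CANNTG on either strand. The HIF1A sequence held GCGTG once, 204 bases upstream, and CANNTG 3 times. Another RefSeq window of HIF1A, chr14:61697462-61697711, which overlaps an exon of the gene, held CANNTG 2 times and neither ACGTG nor GCGTG. Of 35116 RefSeq upstream windows of 250 bases, 43.2% held ACGTG or GCGTG on either strand and 61.8% held CANNTG, so both core sequences are common. The motifs can overlap, since CACGTG holds both ACGTG and CANNTG. A match describes these letters only and does not show binding. VHL and ARNT2 had no entry in the sequence table.

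Values were read as FPKM, which scale fragments by transcript length and by library depth, so levels can be compared between genes per unit of length. The summed FPKM ranged from 536284 to 606609 and from 13989 to 14542 genes reached 1 FPKM in a library. Counts behind the values are unknown, and the depth of the other libraries relative to Control replicate 1 was estimated at 0.979 to 1.18. HAND1 itself was at 12.1 and 14.3 FPKM in Control against 520.5 and 517 in HAND1_OE, the direction the labels give (log2 difference 5.20, limma adjusted p = 0.00145). The CD31 gene PECAM1 was at 95.5 and 141 FPKM in Control against 92.0 and 160 in HAND1_OE, and CDH5, the endothelial cadherin, at 222 to 280.2 FPKM over all libraries. Differences below are of mean log2(FPKM + 1), HAND1_OE minus Control, a scale that understates the change of genes with low values.

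Among the 9 members that reached 1 FPKM in at least 2 libraries, EPAS1 alone rose with HAND1 overexpression and none fell at an adjusted p under 0.05 in limma (moderated test on log2(FPKM + 1), adjusted over 14622 genes). Over all genes tested, 4.16% passed this threshold, 2.04% higher and 2.11% lower. A single call among 9 is too few to set against that background. By position alone, 3 members had both HAND1_OE libraries above both Control libraries (EPAS1, HIF1A and HIF1AN), against 16.2% of all genes tested. In 1 member, VHL, both were below, against 30.1% of all genes. The groups overlapped in the other 5 tested members. ARNT2 was below the minimum in every library and was not tested.

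**Figure D1:**
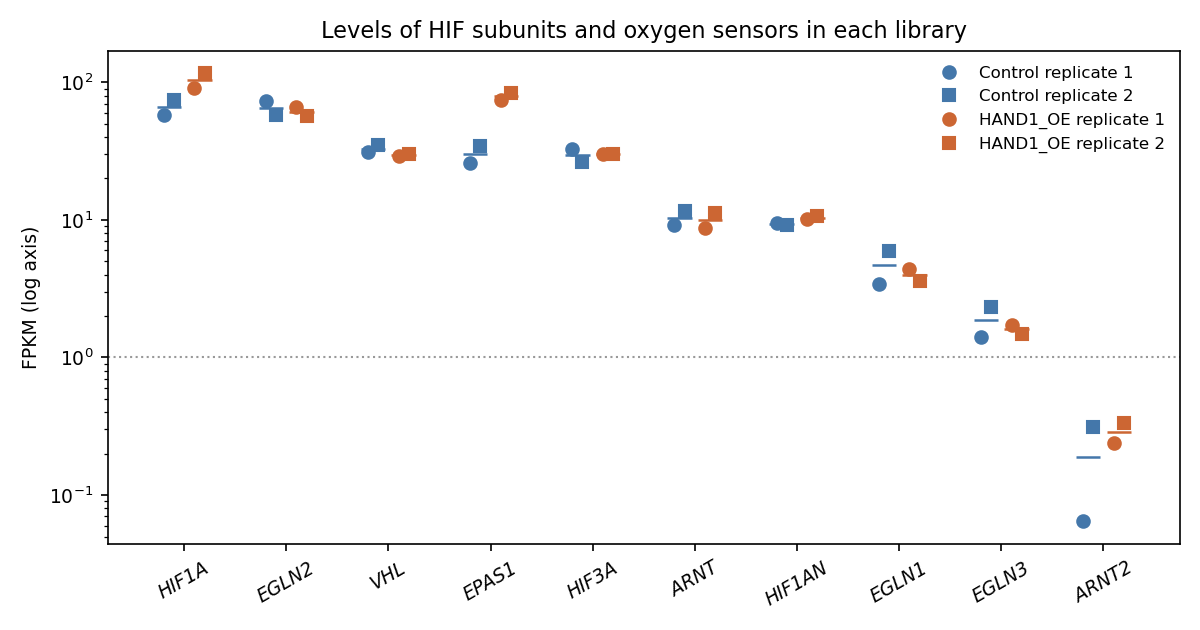
FPKM of each of the 10 members (log axis) in the 2 Control libraries (blue) and the 2 HAND1_OE libraries (orange), with 1 point per library, a short bar at each group mean and a dotted line at 1 FPKM. EPAS1 lies between 26.1 and 34.2 FPKM in Control and between 74.8 and 83.0 FPKM in HAND1_OE, and ARNT2 lies below 1 FPKM in all libraries.

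Of the alpha subunits, EPAS1 had the largest difference. EPAS1 (ENSG00000116016.13; chr2:46293667-46386703, plus strand) was at 26.1 and 34.2 FPKM in Control against 74.8 and 83.0 in HAND1_OE. The lower HAND1_OE library was above the higher Control library by more than the distance between the libraries of either group. Its Control mean of 30.2 ± 5.75 FPKM and its HAND1_OE mean of 78.9 ± 5.80 FPKM (SD, n = 2 each) stood in a ratio of 2.61. On the log2(FPKM + 1) scale the difference was 1.37 (SE 0.182, 95% interval 0.92 to 1.82, limma adjusted p = 0.0220), the rank of 217 from the top among genes tested. Without Control replicate 1, the lower of the Control values, the difference was 1.18 and the call was lost (limma adjusted p = 0.0707), and with genes at all levels tested the adjusted p was 0.170.

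HIF1A, which encodes HIF-1 alpha, the subunit made in most cell types, was the most abundant member per unit of length in HAND1_OE and overlapped with EGLN2 in Control. HIF1A (ENSG00000100644.16; chr14:61695513-61748259, plus strand) was at 57.8 and 74.0 FPKM in Control against 91.6 and 117 in HAND1_OE. Both HAND1_OE libraries were above both Control libraries, but the libraries within each group lay far apart. The log2 difference was 0.65 (SE 0.20, 95% interval 0.15 to 1.15), with an unadjusted p = 0.0189 and a limma adjusted p = 0.174, so HIF1A did not pass the test. The antisense RNAs at this locus were low, with HIF1A-AS1 at 0.122 to 0.745 FPKM and HIF1A-AS2 at 0 to 0.181 FPKM, and whether the counting used strand is not given in the sources used here.

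HIF3A encodes an alpha subunit whose shorter forms can restrain the others. It was at 32.95 and 26.2 FPKM in Control against 30.2 and 30.05 in HAND1_OE. The HAND1_OE values lay between the Control values, and the log2 difference was 0.04 (95% interval -0.38 to 0.45, limma adjusted p = 0.953). The table gives 1 value per gene, so full and short forms cannot be told apart. In Control, EPAS1, HIF3A and VHL had overlapping levels. In HAND1_OE, both EPAS1 values were above all HIF3A and VHL values.

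The partner subunit ARNT was far below the alpha subunits. ARNT was at 9.11 and 11.6 FPKM in Control against 8.71 and 11.2 in HAND1_OE. The groups overlapped almost entirely, with a log2 difference of -0.05 (95% interval -0.55 to 0.45, limma adjusted p = 0.943). ARNT2, the partner best known from neurons, was at 0.0646 and 0.314 FPKM in Control against 0.240 and 0.332 in HAND1_OE. At these levels no difference was detectable.

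The balance of the subunits was described by ratios of FPKM within each library. EPAS1 stood at 0.452 and 0.463 of the HIF1A level in Control and at 0.816 and 0.712 in HAND1_OE. The ratio did not overlap between the groups, and HIF1A remained the more abundant of the pair in all 4 libraries. The mean difference in the log2 ratio was 0.74, and the exact permutation test (two-sided) gave p = 0.333, the smallest value that 2 against 2 libraries allow. The share of EPAS1 among the summed alpha subunits was 22.3% and 25.5% in Control and 38.0% and 36.2% in HAND1_OE. The share of HIF3A was 28.2% and 19.5% in Control and 15.4% and 13.1% in HAND1_OE, while that of HIF1A overlapped between the groups, from 46.6% to 55.0% over all libraries. The summed alpha subunits reached 12.7 and 11.3 times the sum of ARNT and ARNT2 in Control and 22.0 and 19.9 times in HAND1_OE. This log2 difference of 0.80 also gave p = 0.333 in the exact permutation test. The permutation p-values of these ratios and of the hydroxylase share given further on were not adjusted, since none can reach 0.05.

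**Figure D2:**
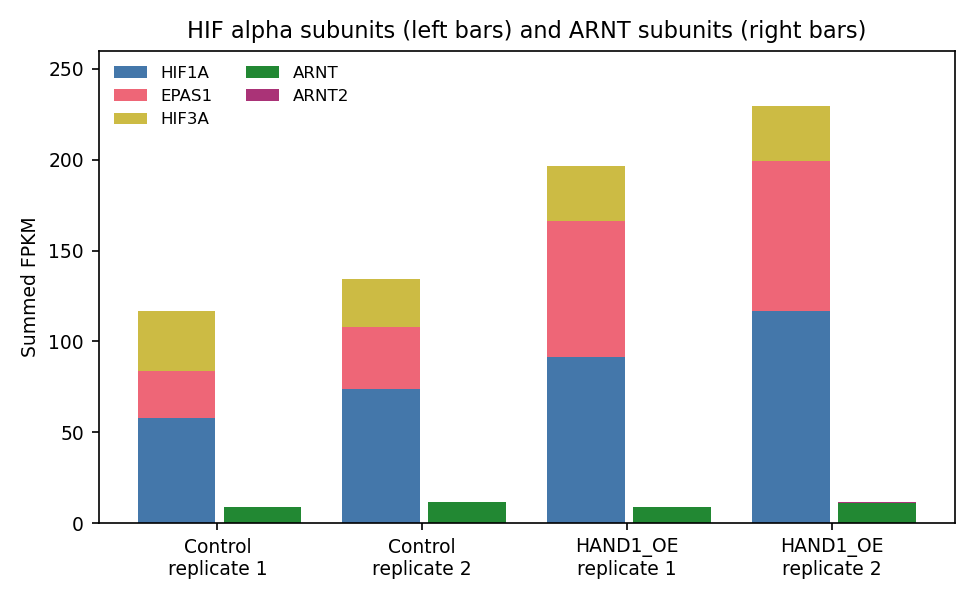
Summed FPKM in each of the 4 libraries, with the alpha subunits HIF1A, EPAS1 and HIF3A stacked in the left bar and ARNT and ARNT2 stacked in the right bar. The left bars reach 117 and 134 FPKM in Control and 197 and 229.5 FPKM in HAND1_OE, and the right bars stay between 8.95 and 11.9 FPKM, with ARNT2 barely visible.

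No prolyl hydroxylase passed the test. EGLN2 (PHD1) made up 87.5% to 93.8% of the summed FPKM of the family in every library, EGLN1 (PHD2) 4.42% to 8.98% and EGLN3 (PHD3) 1.82% to 3.54%. EGLN2 was at 72.8 and 57.8 FPKM in Control against 65.7 and 56.8 in HAND1_OE, with a log2 difference of -0.09 (95% interval -0.53 to 0.36, limma adjusted p = 0.876). EGLN2 shares exons with the readthrough gene RAB4B-EGLN2, listed at 1.43 to 3.97 FPKM, so the division of reads between them is uncertain. EGLN1, the main oxygen sensor for HIF in most tissues, was at 3.43 and 5.94 FPKM in Control against 4.40 and 3.61 in HAND1_OE. Both HAND1_OE values lay within the Control range, and the log2 difference was -0.15 (95% interval -0.81 to 0.51, limma adjusted p = 0.846). EGLN3, itself a common target of HIF, was at 1.41 and 2.34 FPKM in Control against 1.74 and 1.49 in HAND1_OE, with a log2 difference of -0.12 (95% interval -0.72 to 0.48, limma adjusted p = 0.869). Its share of the family differed by -0.27 percentage points between the groups, with p = 1 in the exact permutation test. SPTSSA lies inside the span of EGLN3 on the same strand, at 14.9 to 20.3 FPKM over all libraries. How reads were divided between these genes is not known. The signs of the differences of EGLN2, EGLN3, ARNT and HIF3A turned under quantile or median-ratio scaling or with trends on length and GC content removed, and that of EGLN1 when 1 library was left out, so no direction is given for them.

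VHL recognises hydroxylated alpha subunits. VHL was at 31.0 and 34.8 FPKM in Control against 29.3 and 30.2 in HAND1_OE. The groups did not overlap, but the gap between them was smaller than the distance between the Control libraries, and the log2 difference of -0.14 did not pass the test (95% interval -0.50 to 0.22, limma adjusted p = 0.724). HIF1AN was at 9.49 and 9.22 FPKM in Control against 10.1 and 10.6 in HAND1_OE. The groups did not overlap either, with a log2 difference of 0.13 (95% interval -0.25 to 0.51, limma adjusted p = 0.757). HIF1AN overlaps NDUFB8 on the other strand, a gene of 158 to 191 FPKM.

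**Figure D3:**
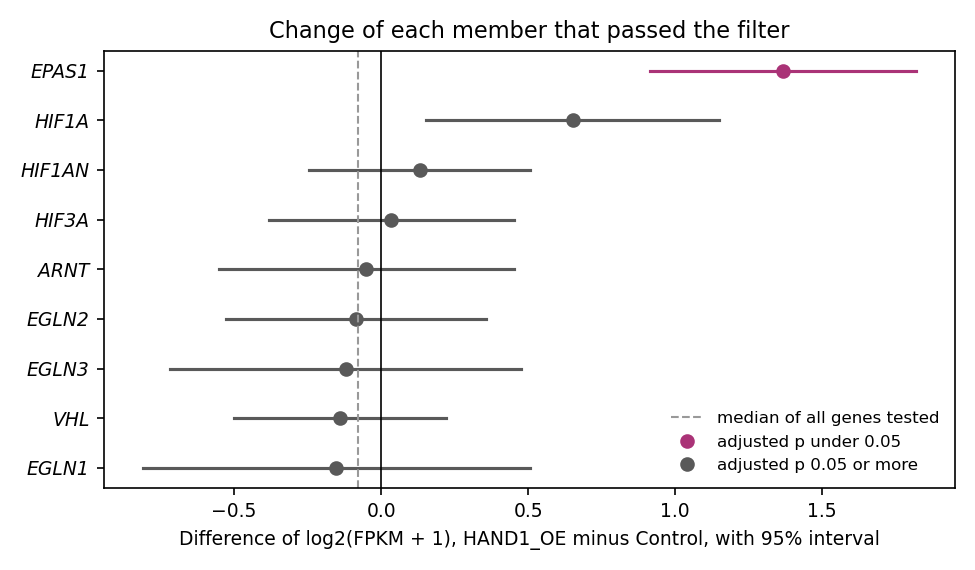
Difference of mean log2(FPKM + 1), HAND1_OE minus Control, for the 9 members tested, with 95% intervals from limma, EPAS1 in purple and the median of all genes tested as a dashed line. The intervals of EPAS1 (0.92 to 1.82) and HIF1A (0.15 to 1.15) lie above 0, only that of EPAS1 goes with an adjusted p under 0.05, and the other 7 intervals include 0.

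The machinery around the members was described with 7 lists of 118 genes, of which 104 were tested, 4 rose and 3 fell (6.73% called, against 4.16% of all genes tested). The median log2 difference over all genes tested was -0.08. None of the 8 partners of VHL in its ubiquitin ligase passed the test, and their median difference was 0.10. ELOB and ELOC, the elongins that bind VHL, were at 161 to 211 FPKM and 51.9 to 70.0 FPKM over all libraries. None of the 5 related bHLH-PAS genes tested passed, among them AHR, the dioxin receptor, at 9.96 and 8.80 FPKM in Control against 6.43 and 8.35 in HAND1_OE.

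Of 13 coactivators and modulators tested, CITED2 fell and none rose (median log2 difference -0.26). By position alone 8 (61.5%) were lower in both HAND1_OE libraries and 0 higher, against 30.1% and 16.2% of all genes tested. Over the 7 lists these shares were 35.6% lower and 16.35% higher. CITED2 competes with HIF alpha subunits for EP300 and CREBBP and is itself a HIF target. It was at 92.5 and 126 FPKM in Control against 46.7 and 47.0 in HAND1_OE, a log2 difference of -1.19 (SE 0.189, limma adjusted p = 0.0347). Its call was lost without Control replicate 2 (limma adjusted p = 0.114), HAND1_OE replicate 1 (0.0584) or HAND1_OE replicate 2 (0.0522). The coactivators EP300 and CREBBP overlapped between the groups, at 14.0 to 23.0 FPKM and 10.9 to 16.7 FPKM.

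Of 22 other 2-oxoglutarate oxygenases tested, the enzyme class to which the EGLN proteins and HIF1AN belong, P4HA2 rose and none fell (median log2 difference -0.01). P4HA2, a collagen prolyl hydroxylase, was at 14.8 and 16.2 FPKM in Control against 33.9 and 30.5 in HAND1_OE, a log2 difference of 1.01 (SE 0.15, limma adjusted p = 0.0296). Without Control replicate 1, Control replicate 2 or HAND1_OE replicate 1 its adjusted p was 0.129, 0.102 and 0.0755 in limma. The collagen lysyl hydroxylases PLOD1 and PLOD3 were also above Control in both HAND1_OE libraries, with log2 differences of 0.69 and 0.64, and did not pass (limma adjusted p = 0.0890 and 0.0754). PLOD1 passed with quantile normalization (limma adjusted p = 0.0417), PLOD3 with median-ratio scaling (0.0499), and both with trends on length and GC content removed (0.0375 and 0.0395). Of the other collagen hydroxylases in the list, PLOD2 and P4HA1 overlapped between the groups and did not pass (log2 differences -0.30 and 0.15). P4HA3 was too low to be tested. The oxygen-sensitive histone demethylases KDM5A and KDM6A did not pass either.

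**Figure D4:**
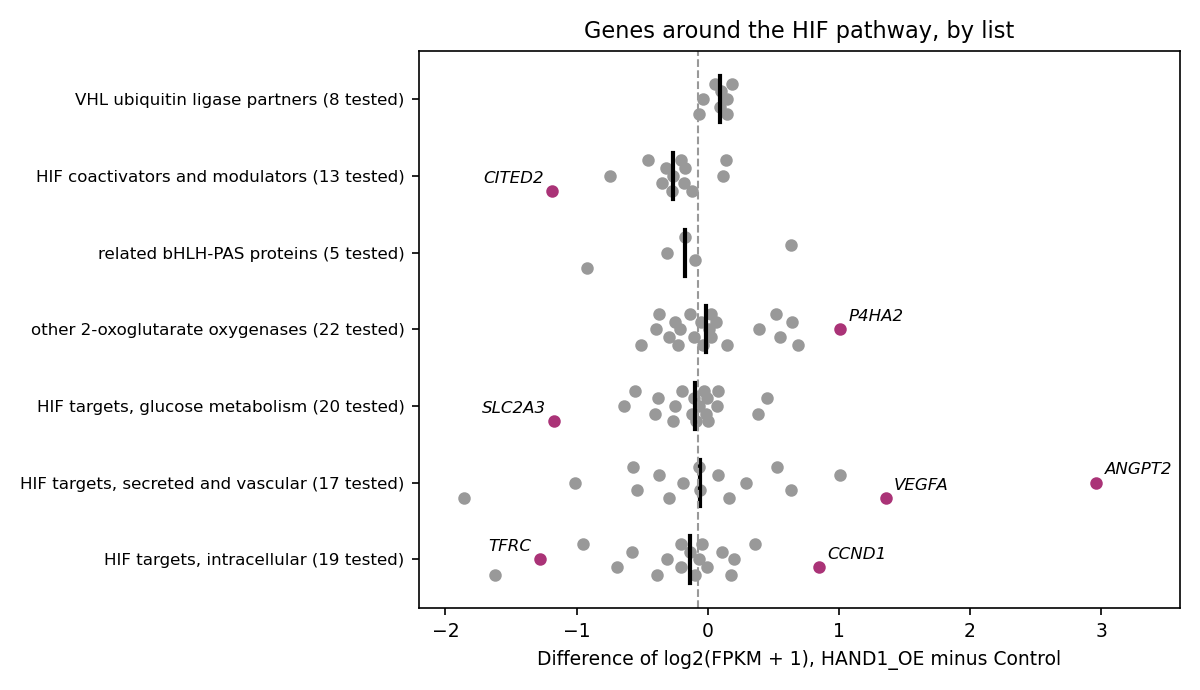
Difference of log2(FPKM + 1), HAND1_OE minus Control, for each tested gene of the 7 lists, with the median of each list as a black bar and the median of all genes tested as a dashed line at -0.08. Purple points are the 7 genes with an adjusted p under 0.05, and the medians of the lists lie between -0.26 and 0.10.

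Known HIF targets moved in both directions. Over the 3 target lists, 56 of 62 genes were tested, 3 rose and 2 fell (8.93% called), and the median log2 difference was -0.10, close to that of all genes. By position alone 10 (17.9%) were higher and 23 (41.1%) lower in both HAND1_OE libraries, against 16.2% and 30.1% of all genes tested. Among 20 genes of glucose use, SLC2A3 fell and none rose. SLC2A3, a high-affinity glucose transporter, was at 189 and 243 FPKM in Control against 82.2 and 109 in HAND1_OE, a log2 difference of -1.17 (SE 0.213, limma adjusted p = 0.0475). Its adjusted p in limma was 0.0684, 0.162 and 0.12 without Control replicate 1, Control replicate 2 and HAND1_OE replicate 1. The other 19 did not pass, and their log2 differences ran from -0.64 for PFKFB4 to 0.45 for PFKFB3, a pair of enzymes that set the level of a regulator of glycolysis. Of the glycolytic enzymes, the enolase ENO2 was at 48.0 and 45.1 FPKM in Control against 33.4 and 29.5 in HAND1_OE (log2 difference -0.55, limma adjusted p = 0.127), and PGAM1 was at 75.0 and 73.6 FPKM in Control against 96.2 and 98.1 in HAND1_OE (0.38, limma adjusted p = 0.235). LDHA, GAPDH and ENO1 overlapped between the groups, and PGK1 did not (-0.25).

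Among 17 secreted and vascular targets tested, ANGPT2 and VEGFA rose and none fell. ANGPT2, an endothelial ligand of the TEK receptor that loosens vessel walls, was at 5.92 and 6.63 FPKM in Control against 59.3 and 52.4 in HAND1_OE. The HAND1_OE mean was 8.89 times that of Control, and the log2 difference of 2.96 (SE 0.156, limma adjusted p = 0.00379) passed the test with any single library left out. VEGFA, the main vascular growth factor, was at 41.5 and 32.6 FPKM in Control against 105 and 87.5 in HAND1_OE, a log2 difference of 1.36 (SE 0.186, limma adjusted p = 0.0246). Without Control replicate 2 it did not pass (limma adjusted p = 0.0822). The receptors TEK and FLT1 overlapped between the groups, and KDR, at 251 to 272 FPKM over all libraries, did not pass (limma adjusted p = 0.896). CXCR4, the chemokine receptor, was at 107 and 175 FPKM in Control against 25.6 and 53.2 in HAND1_OE, and did not pass (log2 difference -1.86, limma adjusted p = 0.0727). It passed without HAND1_OE replicate 2 (-2.37, limma adjusted p = 0.00701) and with protein-coding genes alone (0.0383). By position alone, 6 (35.3%) of this list were higher in both HAND1_OE libraries and 5 (29.4%) lower, against 16.2% and 30.1% of all genes tested. Among the lower ones, ADM and DLL4 did not pass (log2 differences -1.01 and -0.54, limma adjusted p = 0.337 and 0.250). EPO, the classic target of HIF-2 alpha in kidney and liver, was under 0.1 FPKM in every library. The median of this list was -0.06 and its sign turned between alternatives, so it carries no direction.

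Among 19 intracellular targets tested, CCND1 rose and TFRC fell. CCND1, cyclin D1, was at 23.4 and 22.0 FPKM in Control against 45.5 and 38.3 in HAND1_OE, a log2 difference of 0.85 (SE 0.157, limma adjusted p = 0.0491) that did not pass when any 1 library was left out (limma adjusted p from 0.0556 to 0.222). TFRC, the transferrin receptor, needed above all by red cell precursors, was at 13.0 and 12.2 FPKM in Control against 5.21 and 4.05 in HAND1_OE, a log2 difference of -1.28 (SE 0.180, limma adjusted p = 0.0258). It did not pass without Control replicate 1 or Control replicate 2 (limma adjusted p = 0.0937 and 0.0840). HMOX1, heme oxygenase, and MT1X, a metallothionein, were lower in both HAND1_OE libraries and did not pass (log2 differences -0.69 and -1.62, limma adjusted p = 0.0735 and 0.0615). MT1X passed without HAND1_OE replicate 2 (limma adjusted p = 0.0193) and with protein-coding genes alone (0.031). CA9, a sensitive target of HIF-1 alpha, was under 1 FPKM in every library.

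**Figure D5:**
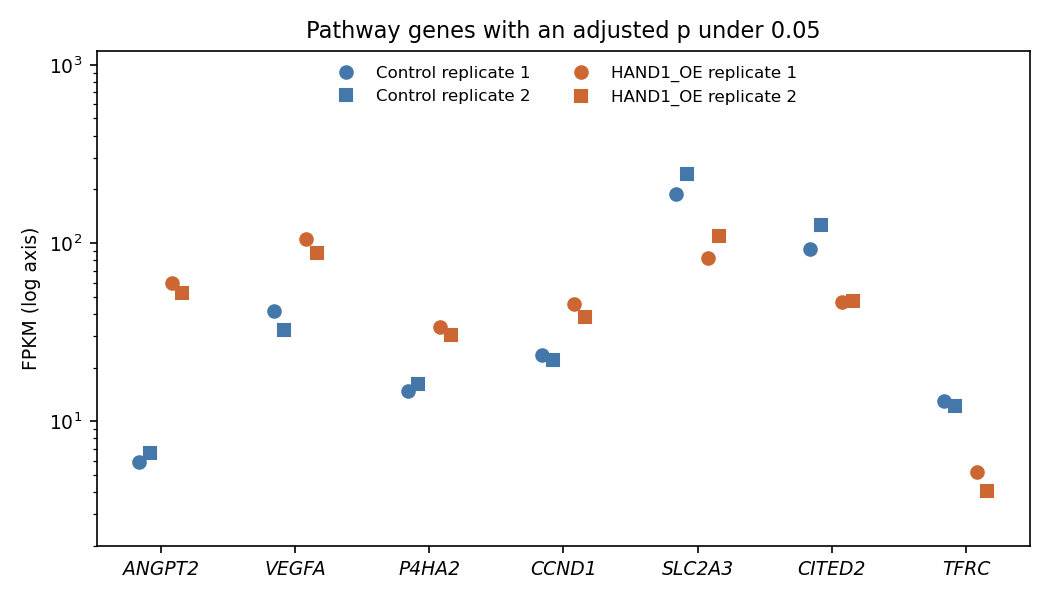
FPKM (log axis) of the 7 pathway genes with an adjusted p under 0.05, with blue for Control, orange for HAND1_OE and 1 point per library. ANGPT2, VEGFA, P4HA2 and CCND1 are higher in both HAND1_OE libraries, SLC2A3, CITED2 and TFRC are lower, and ANGPT2 has the widest gap (5.92 and 6.63 against 59.3 and 52.4 FPKM).

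Markers of other cells moved with the groups. In bulk RNA, fewer cells of a type and less RNA per cell cannot be told apart. The summed FPKM of 13 red blood cell markers was 889 and 1283 in Control and 70.3 and 57.0 in HAND1_OE, and 11 of 12 tested fell. Of 10 white blood cell and megakaryocyte markers tested 9 fell, with summed levels of 249 and 268 FPKM against 25.5 and 15.9 FPKM. Stromal markers summed to 446 and 368 FPKM in Control and to 599 and 544 FPKM in HAND1_OE, and 4 of 9 tested rose (POSTN, PDGFRB, LUM and FBN1). Without COL3A1, which did not pass, the sums were 286 and 270.4 FPKM against 274 and 303, and COL1A1 and COL1A2 were lower in both HAND1_OE libraries and did not pass (log2 differences -0.23 and -0.82). The 15 endothelial markers summed to 2480 and 1978 FPKM in Control and to 2456 and 2131 FPKM in HAND1_OE, with 1 risen and 2 fallen. Of 9 genes that rise during cell dissociation, JUNB and ZFP36 fell and none rose, with summed levels of 1320 and 1825 FPKM in Control and of 939 and 1025 FPKM in HAND1_OE. Of 5 cardiac markers tested, MYL4 fell, from 72.0 to 4.26 FPKM on average, and no other passed. The list summed to 115 and 106 FPKM against 32.0 and 32.3 FPKM, and MYL4 made up most of the Control sums. The median log2 difference of the list was -0.14. NKX2-5 was lower and TNNT2 higher in both HAND1_OE libraries (log2 differences -0.82 and 1.196), while MYL7 and ACTN2 overlapped between the groups. Of 4 trophoblast and amnion markers tested, TFAP2A rose, and the list summed to between 35.5 and 41.7 FPKM in every library. None of 4 pluripotency markers tested passed, with sums of 63.9 and 72.6 FPKM against 33.4 and 47.3 FPKM. No marker was at 0 in all libraries. AHSP, of red blood cells, was at 0 in both HAND1_OE libraries, and MPO and PTPRC, of white blood cells, were under 0.1 FPKM in every library. Divided by the summed endothelial markers, EPAS1 was at 10.5 and 17.3 per 1000 FPKM in Control and at 30.4 and 38.9 in HAND1_OE. The log2 difference was 1.35 without a test, with a within-group SD of 0.40. The sum itself overlapped between the groups, so dividing by it changed the difference little. The log2 differences of the endothelial markers in the sum ran from -2.27 to 2.18. Its largest part was EGFL7, at 750.5 and 444 FPKM in Control against 882 and 468 in HAND1_OE. This scale for EPAS1 was added after the data were seen. The part of the cells behind these markers in the differences of EPAS1, of the list genes or of any other gene given above was not tested.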

How the data were processed

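RNA libraries (Illumina TruSeq) were made from CD31+ cells at day 8, in 2 Control and 2 HAND1_OE samples grouped by title. The authors deposited 1 table of values per gene, read here as FPKM, since that is the unit of the study's plots and the values are not whole and have no fixed sum. The submitters' processing notes name BWA, Bowtie, RSEM and hg19, with no versions, but the coordinates of 56550 genes equal those of GENCODE release 29 on GRCh38, with starts counted from 0, and starts are given here from 1. Of 58365 rows, 45 Y copies of pseudoautosomal genes and 91 further rows with a shared gene ID were left out. In each library 667 to 681 genes had values above 0 but under 0.0001 FPKM, so reads were divided between genes by estimation. No counting interval can be given because FPKM holds no counts.

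Genes that reached 1 FPKM in 2 or more libraries were kept and transformed to log2(FPKM + 1). The fit used limma 3.58.1 in R 4.3.3, two-sided, trend on, with Benjamini-Hochberg adjustment over all 14622 genes. This fit gives the adjusted p-values printed without a named alternative. Each alternative was adjusted over the genes of its own fit. Members and lists were chosen with earlier results of these data known. The named genes are the 10 members, HAND1, the genes of the lists that passed the threshold, and a few further list genes chosen after their values were seen. The code was tested on simulated data. Alternatives were another pseudocount, other filters, quantile and median-ratio scaling, no trend, protein-coding genes only, a replicate block, removal of trends on transcript length and GC content, an added fold threshold of 2, and each library left out. Dividing EPAS1 by endothelial markers and the stromal sum without COL3A1 were added after the data were seen.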

Additional observations from a re-analysis of the deposited data

How the results depend on the processing

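EPAS1 kept its direction in all alternatives (log2 difference 1.32 to 1.46, and 1.18 to 1.56 with 1 library left out). It passed the limma threshold in 9 of 10 alternatives and in 3 of 4 fits without a library. With no filter on low values no gene passed, higher or lower (0 and 0, with 1458 and 2352 at an unadjusted p under 0.05), no member (0, with 2 unadjusted: EPAS1 and HIF1A) and none of the coactivators, oxygenases, glucose, secreted or intracellular targets (0 each, with 3, 5, 4, 4 and 6 unadjusted), and HAND1 at 5.20 had an adjusted p = 0.153.

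Only 2 pairs shared replicate numbers, and the labels do not say that numbers pair the samples. Deviations of same-numbered libraries correlated at 0.38. With the replicate number as a block, 597 genes were called higher and 712 lower. Called members were then 2, since HIF1A passed (limma adjusted p = 0.0227), with calls in 1 bHLH-PAS gene, 4 oxygenases, 2 glucose targets (ENO2 adjusted p = 0.036 beside SLC2A3) and 5 intracellular targets, and CXCR4 passed (0.00964). With the block and length and GC trends removed, 770 genes were higher and 1011 lower, with 2 members (HIF1A adjusted p = 0.0123), 2 coactivators, 6 oxygenases, 3 glucose, 4 secreted and 6 intracellular targets.

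The number of list genes called also moved in other fits. Intracellular targets had 1 call under the fold threshold of 2, a pseudocount of 0.1, no trend, or length and GC trends removed. Glucose targets had 0 calls with a pseudocount of 0.1 (5 at an unadjusted p under 0.05), quantile normalization (4), median-ratio scaling (4) or no trend (4). Oxygenases had 2 with quantile or median-ratio scaling and 3 with length and GC trends removed, and coactivators 0 with quantile normalization (2 unadjusted). With 1 library left out, 134 to 266 genes were called higher, 137 to 309 lower, 0 to 1 members, 0 to 1 coactivators, oxygenases and glucose targets, 1 to 4 secreted and 0 to 2 intracellular targets. Without Control replicate 1 no member passed (0, with 1 at an unadjusted p under 0.05). Fits that leave out a library assume that the lone library varies like the other group.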
